A study of Bos taurus with 12 samples.

Results

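The 10 genes described here encode the machinery that cuts proteins into peptides and loads them onto major histocompatibility complex (MHC) molecules. They are beta-2-microglobulin (B2M), the peptide transporter subunits TAP1 and TAP2, tapasin (TAPBP), the immunoproteasome subunits PSMB8, PSMB9 and PSMB10, the invariant chain CD74, and the transcriptional coactivators CIITA and NLRC5. They were chosen by function, with earlier results of these data known. Each was read on the probeset that names that gene alone, or on the brighter of such probesets over the 12 arrays. Of the 10 genes 9 were read in this way, out of 18010 genes with such a probeset and 26773 probesets in all. TAP2 had 2 probesets, and both also name a second gene, LOC618733, so TAP2 is named here without values.

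The signals come from epithelial cells of the bovine oviduct, collected from 6 Angus heifers, with 1 array for the ampulla and 1 for the isthmus of each heifer. The 3 heifers of the follicular phase (FP) had received 25 mg of PGF2α on day 6 and were killed after 36 h, a treatment that regresses the corpus luteum, so this phase was induced. The 3 heifers of the luteal phase (LP), for which no such injection is described, were killed on day 11 or 12, when progesterone from the corpus luteum prevails. The 4 groups (FP ampulla, LP ampulla, FP isthmus and LP isthmus) thus hold 3 arrays each, and the phase cannot be told apart from the day of the cycle or from the injection. The cells were squeezed from sections of the oviduct on the side of the follicle or corpus luteum, no sort is described, and other cells of the mucosa may be present. The mean signal of 8 epithelial markers was between 10.58 and 11.09 on all 12 arrays, against array medians of 7.33 to 7.40. This mean was higher in the FP on every array of a tissue, at 10.93 to 11.02 against 10.74 to 10.87 in the ampulla and 10.94 to 11.09 against 10.58 to 10.91 in the isthmus. The single markers were split, with 4 higher and 4 lower in the FP ampulla and 5 and 3 in the FP isthmus. At an adjusted p under 0.05 (limma), 3 were higher and 1 lower in each tissue. Only the keratin KRT8 also differed by 1.5-fold, higher by 0.79 (adjusted p = 0.00237) and 0.72 (adjusted p = 0.00375). The part of these differences in the results that follow was not tested.

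MHC class I molecules pair a heavy chain with B2M and show peptides from inside the cell to CD8 T cells. The peptides are cut by the proteasome, in which PSMB8, PSMB9 and PSMB10 can take the places of the constitutive subunits PSMB5, PSMB6 and PSMB7, and are carried into the endoplasmic reticulum by TAP1 and TAP2. There TAPBP, with calreticulin (CALR) and the oxidoreductase PDIA3, holds the empty class I molecule at the transporter until a peptide is bound. MHC class II molecules show peptides from endosomes to CD4 T cells, and CD74 guards their groove until then. CIITA is the master coactivator of class II genes and NLRC5 that of class I genes, and interferon-gamma induces most of these genes in many cell types, epithelia included.

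In ARS-UCD2.0 coordinates, TAP2 (chr23:7138820-7146579), PSMB8 (chr23:7173032-7176410), TAP1 (chr23:7177596-7186308) and PSMB9 (chr23:7186453-7193346) lie within 54.5 kb of the MHC region on chromosome 23. Only 144 bases separate the end of TAP1 from the start of PSMB9, and 1185 bases separate PSMB8 from TAP1. TAPBP lies on the same chromosome (chr23:7473471-7483390). The other genes are spread over the genome, with B2M at chr10:103095506-103103791, CD74 at chr7:61747919-61755725 and CIITA at chr25:9542385-9601549. NLRC5 (chr18:25009893-25103235) and PSMB10 (chr18:35417746-35422936) share chromosome 18. The probesets were matched by symbol, and the strand and exons they read were not used here.

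Of this machinery TAPBP alone passed a test for phase, and it did so in both tissues at just under 1.5-fold. A gene counts as differentially expressed (DEG) when its adjusted p (limma, Benjamini-Hochberg over all 26773 probesets) is under 0.05 and the groups differ by 1.5-fold or more. Here "rose" and "fell" mean an adjusted p under 0.05. None of the 9 genes was a DEG in the FP versus the LP groups in either tissue. Of all probesets, 4.44% were DEGs with the higher signal in the FP ampulla and 3.38% with the lower one. The shares for the isthmus were 4.4% and 4.04%. Without the minimum fold, 1 gene, TAPBP, was higher in the FP in each tissue and none was lower, against shares of 8.8% (higher) and 7.68% (lower) of probesets in the ampulla and of 8.73% and 8.36% in the isthmus. These shares also stand beside the phase counts of the gene lists and markers below. At an unadjusted p under 0.05 the counts were 4 of 9 in the ampulla and 2 of 9 in the isthmus, against 29.6% and 29.9% of all probesets. The median log2 difference of the 9 genes was -0.33 for the ampulla and -0.26 for the isthmus. Over all probesets the medians were -0.03 and -0.01. TAPBP and PSMB10 had higher means in the FP and the other 7 genes lower means, in both tissues.

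**Figure D1:**
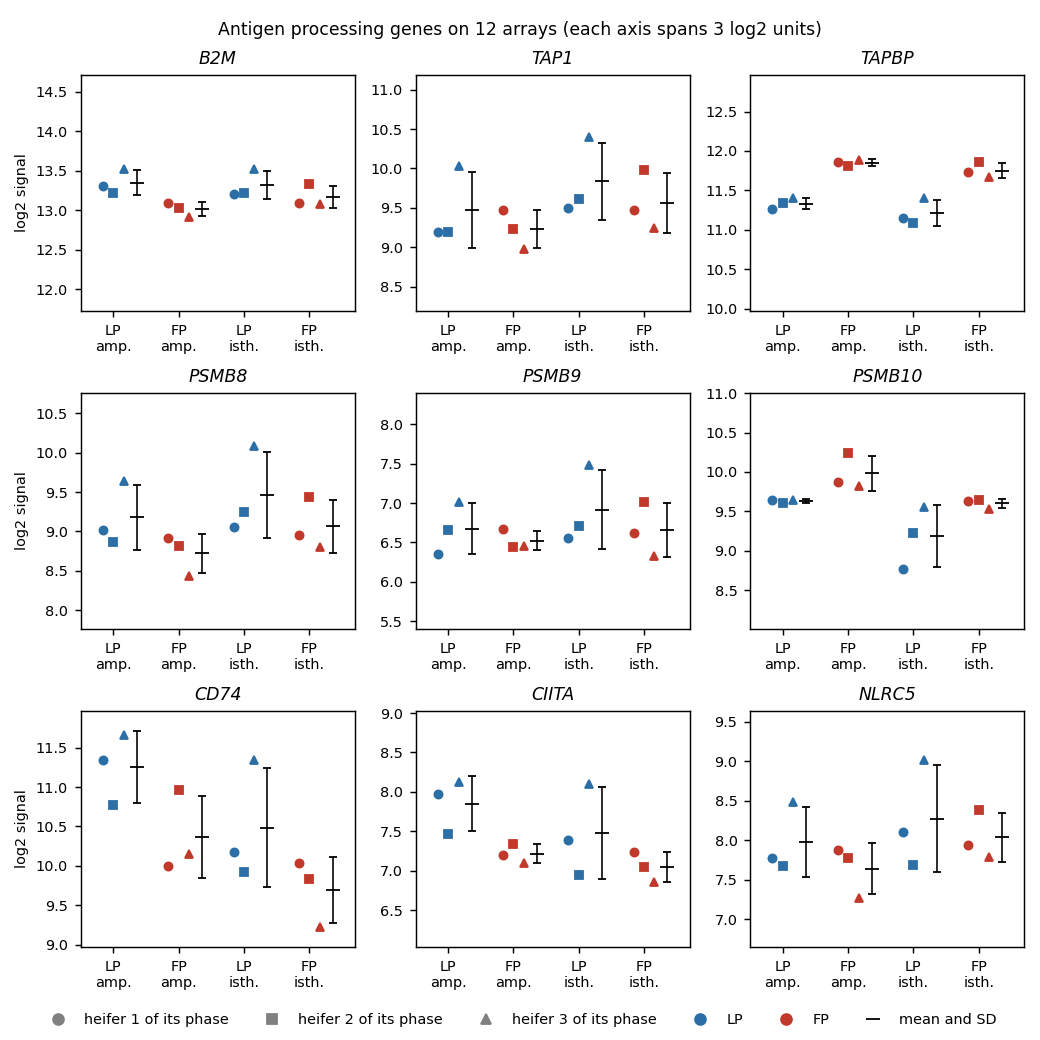
Log2 signal of each of the 9 genes on the 12 arrays, by phase and tissue (amp., ampulla; isth., isthmus), with 1 symbol per heifer and the mean and SD of each group of 3. TAPBP in the FP lies above the LP in both tissues, while for TAP1, PSMB8, PSMB9 and NLRC5 the triangle of LP heifer 3 lies far above the other LP heifers.

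**Figure D2:**
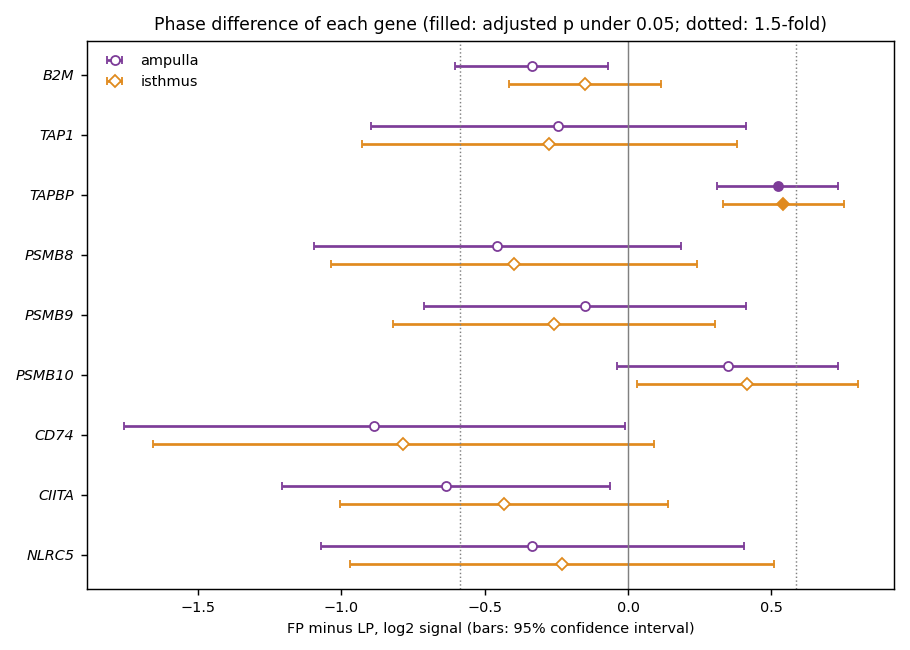
FP minus LP difference in log2 signal of each gene in the ampulla and the isthmus, with 95% confidence intervals from the limma fit over 12 arrays. Only the TAPBP points are filled (adjusted p under 0.05), and they lie just inside the dotted line of 1.5-fold.

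TAPBP was the gene of this set that differed most clearly by phase. Its log2 signal in the ampulla was 11.86, 11.81 and 11.89 in FP heifers 1, 2 and 3, and 11.26, 11.33 and 11.40 in LP heifers 1, 2 and 3. In the isthmus it was 11.73, 11.86 and 11.67 in the FP and 11.15, 11.09 and 11.40 in the LP. Every FP array was thus above every LP array of its tissue, and the spread within a group was small. TAPBP rose by 0.52 in the ampulla (SE 0.10, 95% confidence interval 0.31 to 0.73, adjusted p = 0.0049 by limma), a 1.44-fold increase, and by 0.54 in the isthmus (SE 0.10, interval 0.33 to 0.75, adjusted p = 0.00375), a 1.46-fold increase. The intervals hold both the minimum fold of 1.5 and smaller changes. With any 1 heifer left out the difference in the ampulla stayed between 0.49 and 0.56, with adjusted p up to 0.031. The range in the isthmus was 0.48 to 0.64, and at the upper end, without LP heifer 3, TAPBP was a DEG there (adjusted p = 0.00393).

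The main chaperones that work beside tapasin rose as well. Of 7 chaperones and trimming peptidases of the peptide loading complex, 3 rose in each tissue without the minimum fold, and these were CALR, PDIA3 and calnexin (CANX). CALR, which holds the sugar-bearing class I heavy chain, was between 13.14 and 13.34 on the 6 FP arrays and between 11.77 and 12.30 on the 6 LP arrays. It rose by 1.35 ± 0.10 (SE) in the ampulla (limma, adjusted p = 2.62e-05) and by 1.03 in the isthmus (SE 0.10, adjusted p = 0.000175). PDIA3, which is bound to tapasin in the complex, rose by 0.74 and 0.54 (adjusted p = 0.000194 and 0.0013). CANX, which folds new heavy chains, rose by 0.36 and 0.34 (adjusted p = 0.00739 and 0.00939). These chaperones fold many other glycoproteins, and CANX was named after its values were seen.

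The peptidases that trim peptides to length had lower means in the FP. ERAP2, which acts in the endoplasmic reticulum, fell by 0.60 in the isthmus (SE 0.16, adjusted p = 0.0241) and had a difference of -0.48 in the ampulla (adjusted p = 0.0591), but without LP heifer 3 it was not a DEG in either tissue. LNPEP, a trimming peptidase of endosomes, fell by 0.56 in the isthmus (adjusted p = 0.00391). The median difference of the 7 genes was -0.14 in the ampulla and -0.10 in the isthmus, and 3 members had positive and 4 negative differences in each tissue. TAPBPL, a relative of tapasin that edits peptides outside the complex and is named here after its values were seen, had differences of -0.14 and -0.19 (adjusted p = 0.476 and 0.295).

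B2M, the light chain shared by all class I molecules, was lower in the FP in the ampulla without reaching the threshold. In the ampulla its signal was 13.10, 13.03 and 12.91 in FP heifers 1, 2 and 3, and 13.31, 13.22 and 13.53 in LP heifers 1, 2 and 3. The isthmus arrays gave 13.09, 13.33 and 13.08 in the FP and 13.21, 13.22 and 13.52 in the LP. The groups did not overlap in the ampulla and did so in the isthmus. The differences were -0.34 (SE 0.12, interval -0.60 to -0.07, adjusted p = 0.0854) and -0.15 (SE 0.12, interval -0.42 to 0.12, adjusted p = 0.461). Without LP heifer 3 they were -0.25 and -0.05. A second probeset of B2M had means of 12.07 in the FP and 12.42 in the LP of the ampulla, and of 12.13 and 12.26 in the isthmus. All B2M signals lay near the bright end of the arrays, whose highest signal was 14.51 to 14.56, and whether that compressed the differences was not tested.

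Few of the heavy chains that pair with B2M passed the test. Of 7 class I and class I-like chains read, CD1E, a CD1 protein that in human cells helps to load lipid antigens, was the only DEG in the ampulla, where it fell by 1.11 (SE 0.24, adjusted p = 0.0112). FCGRT, the neonatal Fc receptor that carries immunoglobulin G across epithelia, was the only DEG in the isthmus, where it rose by 0.68 (SE 0.18, adjusted p = 0.024). Over all probesets, 3.38% were lower DEGs in the ampulla and 4.4% higher DEGs in the isthmus. The FCGRT call was lost without LP heifer 3, when no class I chain was a DEG in the isthmus. The classical chain listed as BOLA had differences of -0.54 (adjusted p = 0.184) and -0.38 (adjusted p = 0.358). BOLA genes are a family of near-identical, polymorphic copies, so their values are uncertain.

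TAP1, 1 subunit of the peptide transporter, overlapped between the phases in both tissues. In the ampulla its signal was 9.47, 9.23 and 8.98 in FP heifers 1, 2 and 3, and 9.20, 9.20 and 10.03 in LP heifers 1, 2 and 3. In the isthmus it was 9.47, 9.97 and 9.24 in the FP and 9.50, 9.61 and 10.40 in the LP. The high arrays were the ampulla and isthmus of LP heifer 3 and the isthmus of FP heifer 2. The differences of -0.24 (SE 0.30, interval -0.90 to 0.41, adjusted p = 0.658) and -0.27 (SE 0.30, interval -0.93 to 0.38, adjusted p = 0.599) were within the spread between heifers. Without LP heifer 3 they were 0.034 and 0.0053.

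Many constitutive proteasome genes rose in the FP, while none of the 3 immune subunits passed the test. Of the 10 structural and other subunits of the core particle that were read, 8 rose in the ampulla and 9 in the isthmus without the minimum fold, and none fell. Of all probesets 8.8% and 8.73% rose. In the ampulla 1 of the 10 subunits was a DEG (4.44% of all probesets were higher DEGs), and without LP heifer 3 there were 2. Of the 8 genes of the constitutive catalytic subunits, activators and assembly factor, 6 rose in each tissue and none fell, and without LP heifer 3 the counts were 4 in the ampulla and 5 in the isthmus. The DEGs of both lists were PSMB5, PSMB6 and PSMA1 in the ampulla and PSMB5, PSMA1, PSMB2 and PSMB3 in the isthmus. PSMB8 and PSMB9 had lower means in the FP and PSMB10 a higher one.

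PSMB8, the immune form of the chymotrypsin-like subunit, had signals of 8.91, 8.81 and 8.44 in the ampulla of FP heifers 1, 2 and 3, and of 9.02, 8.87 and 9.64 in the LP. In the isthmus it had 8.95, 9.44 and 8.80 in the FP and 9.06, 9.24 and 10.08 in the LP. LP heifer 3 was highest in both tissues and the phases overlapped in the isthmus and at 8.87 to 8.91 in the ampulla. The differences were -0.46 (SE 0.29, interval -1.10 to 0.18, adjusted p = 0.339) and -0.40 (SE 0.29, interval -1.04 to 0.24, adjusted p = 0.409), and without LP heifer 3 they were -0.22 and -0.09. PSMB5, whose place PSMB8 takes, rose by 0.75 ± 0.12 (SE) in the ampulla (limma, adjusted p = 0.00233) and by 0.76 in the isthmus (SE 0.12, adjusted p = 0.00221). PSMB5 was between 11.33 and 11.59 on the 6 FP arrays and between 10.58 and 10.94 on the 6 LP arrays, with no overlap.

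PSMB9, which takes the place of the caspase-like subunit PSMB6, stayed under the array medians of 7.33 to 7.40 on all arrays but the isthmus of LP heifer 3. In the ampulla it was 6.67, 6.45 and 6.46 in FP heifers 1, 2 and 3 and 6.36, 6.65 and 7.01 in the LP. The isthmus arrays gave 6.62, 7.01 and 6.33 in the FP and 6.55, 6.71 and 7.48 in the LP. The phases overlapped in both tissues. Its differences of -0.15 (SE 0.25, adjusted p = 0.763) and -0.26 (SE 0.25, adjusted p = 0.56) became 0.0175 and 0.0265 without LP heifer 3. PSMB6 rose by 0.81 ± 0.11 (SE) in the ampulla (limma, adjusted p = 0.00114) and by 0.49 in the isthmus (SE 0.11, adjusted p = 0.0136).

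PSMB10, the immune form of the trypsin-like subunit and the one encoded outside the MHC region, had higher means in the FP, as its constitutive counterpart did. In the ampulla it was 9.87, 10.24 and 9.83 in FP heifers 1, 2 and 3, and 9.65, 9.61 and 9.64 in the LP, with no overlap. In the isthmus it was 9.63, 9.64 and 9.53 in the FP and 8.77, 9.23 and 9.56 in the LP, where LP heifer 3 reached the FP values. The differences of 0.35 (SE 0.17, interval -0.04 to 0.73, adjusted p = 0.216) and 0.42 (SE 0.17, interval 0.03 to 0.80, adjusted p = 0.134) did not pass the test. With any 1 heifer left out the difference in the ampulla was between 0.22 and 0.42. In the isthmus it was 0.21 without LP heifer 1 and 0.60 without LP heifer 3 (adjusted p = 0.0441). PSMB10 was a DEG only in the fit without LP heifer 3. PSMB7, whose place it takes, rose by 0.50 (adjusted p = 0.00324) and 0.32 (adjusted p = 0.0247).

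The phase change of each immune subunit was then set against that of its counterpart on the same arrays, in 6 comparisons chosen after the values were seen. PSMB8 minus PSMB5 differed between the phases by -1.21 in the ampulla (SE 0.24) and by -1.15 in the isthmus (SE 0.24). PSMB9 minus PSMB6 differed by -0.96 (SE 0.19) and by -0.75 (SE 0.30). PSMB5 and PSMB6 alone already separated the phases on every array, so these values only describe the pairs. An exact permutation test of 3 against 3 arrays gave each of them p = 0.1 (adjusted p = 0.15). That is the smallest p such a test can give, so it could not decide. None of the 6 comparisons passed. Without LP heifer 3 the differences were -1.06, -0.96, -0.82 and -0.54 in that order. For PSMB10 minus PSMB7 the differences were -0.15 (SE 0.14) and 0.10 (SE 0.26).

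**Figure D3:**
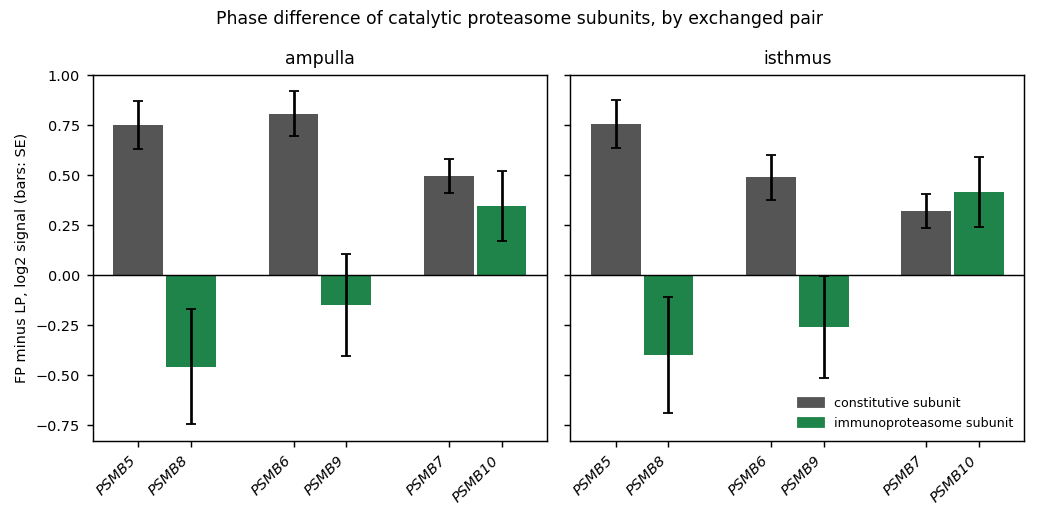
FP minus LP difference in log2 signal, with SE, of each constitutive catalytic proteasome subunit (grey) and of the immunoproteasome subunit that takes its place (green), in the ampulla and the isthmus. PSMB5, PSMB6 and PSMB7 rose by 0.32 to 0.81, PSMB8 and PSMB9 had differences below 0, and PSMB10 lay close to PSMB7.

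Among the activators, PSME1, a subunit of the cap that interferon-gamma induces, rose by 0.32 in the ampulla (adjusted p = 0.0198) and by 0.49 in the isthmus (adjusted p = 0.00237). PSME2, its partner in that cap, had differences of 0.22 (adjusted p = 0.369) and 0.34 (adjusted p = 0.165). POMP, which assembles both kinds of proteasome, rose by 0.36 and 0.48 (adjusted p = 0.0263 and 0.00727). These and PSMB7 were named after their values were seen.

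CD74 had the widest spread over the 12 arrays of the 9 genes (SD 0.74) and the largest difference of means. In the ampulla its signal was 9.997, 10.96 and 10.15 in FP heifers 1, 2 and 3, and 11.34, 10.77 and 11.65 in LP heifers 1, 2 and 3. The isthmus arrays gave 10.03, 9.83 and 9.23 in the FP, and 10.18, 9.93 and 11.34 in the LP. The phases overlapped in both tissues, through FP heifer 2 against LP heifer 2 in the ampulla and FP heifer 1 against LP heifer 2 in the isthmus. The differences were -0.89 (SE 0.40, interval -1.76 to -0.01, adjusted p = 0.164) and -0.79 (SE 0.40, interval -1.66 to 0.09, adjusted p = 0.215). Without LP heifer 3 they were -0.69 (adjusted p = 0.222) and -0.36 (adjusted p = 0.548).

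CIITA, which drives the transcription of CD74 and of the class II chains, had lower means in the FP as well. In the ampulla it was 7.20, 7.34 and 7.10 in FP heifers 1, 2 and 3 and 7.97, 7.46 and 8.13 in the LP, with no overlap. In the isthmus it was 7.24, 7.04 and 6.86 in the FP and 7.39, 6.95 and 8.10 in the LP, where LP heifer 2 lay within the FP values. The differences were -0.64 (SE 0.26, interval -1.21 to -0.06, adjusted p = 0.127) and -0.43 (SE 0.26, interval -1.01 to 0.14, adjusted p = 0.304). Without LP heifer 2, the lowest LP heifer, CIITA was a DEG in the ampulla (difference -0.83, adjusted p = 0.0326). Without LP heifer 3 its differences were -0.50 in the ampulla, where it was not a DEG, and -0.12 in the isthmus.

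For genes with an SD of at least 0.5 over the 12 arrays, a condition met among the 9 by CD74 alone, the 3 genes with the most similar centred signals were sought. For CD74 they were BOLA-DRB3 (root mean square difference 0.16), C3H1orf54 (0.27) and BOLA-DRA (0.28), where the median over all genes was 0.74. BOLA-DRA and BOLA-DRB3 encode the chains of the class II molecule DR, whose groove CD74 fills. BOLA-DRA had differences of -1.03 in the ampulla (SE 0.34, adjusted p = 0.066) and -0.81 in the isthmus (SE 0.34, adjusted p = 0.142), and BOLA-DRB3 of -1.02 (adjusted p = 0.12) and -0.88 (adjusted p = 0.178).

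**Figure D4:**
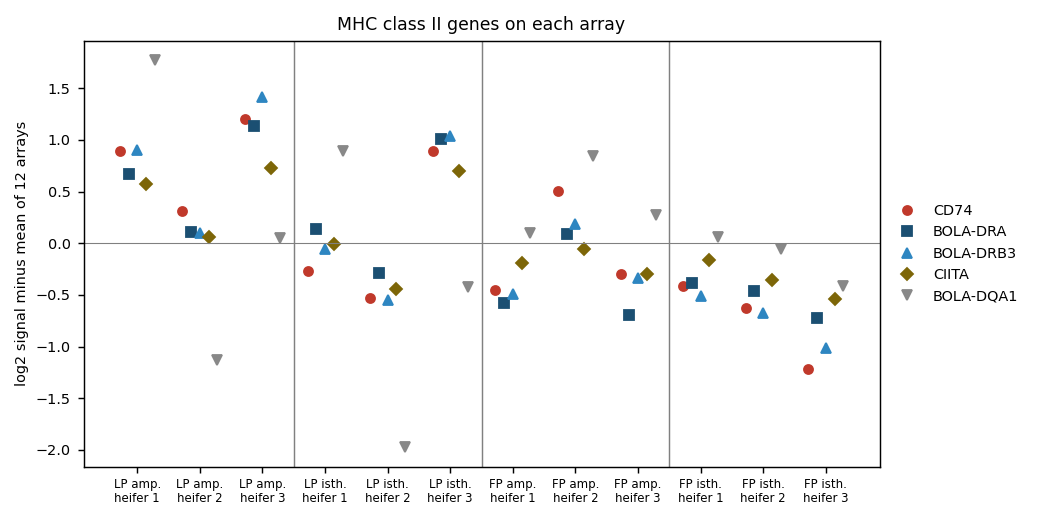
Log2 signal of CD74, CIITA, BOLA-DRA, BOLA-DRB3 and BOLA-DQA1 on each of the 12 arrays, minus the mean of that gene over the arrays (amp., ampulla; isth., isthmus). CD74 and both BOLA-DR chains move together and are highest in LP heifer 3 of each tissue, whereas BOLA-DQA1 is highest in LP heifer 1 and lowest in LP heifer 2.

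Of 14 class II chains read, 12 had lower means in the FP in each tissue, with median differences of -0.57 and -0.25, and 4 of the 14 had mean signals under the lower quartile of the arrays. BOLA-DOB, which restrains peptide exchange on class II molecules, was the only DEG in the ampulla, where it fell by 0.63 (SE 0.16, adjusted p = 0.0217), and none was a DEG in the isthmus. Over all probesets, 3.38% were lower DEGs in the ampulla and 4.04% in the isthmus. BOLA-DQA1, chosen after its values were seen, was 11.64 in the ampulla of LP heifer 1 and 8.74 in that of LP heifer 2, and 10.76 and 7.89 in the isthmus. Both tissues thus had LP heifer 1 highest and LP heifer 2 lowest of the LP, and its differences between the phases were 0.17 and 0.37 (adjusted p = 0.918 and 0.803). The polymorphic class II genes have near-identical copies, so these values are uncertain too.

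Enzymes that prepare peptides for class II molecules changed in both directions. Of 8 genes read, cathepsin F (CTSF), a lysosomal protease, fell in both tissues, by 0.76 (ampulla, adjusted p = 0.00121) and 0.86 (isthmus, adjusted p = 0.000655). Cathepsin S (CTSS), the main protease that removes CD74 from class II molecules, fell by 0.60 in the ampulla (SE 0.12, adjusted p = 0.00764), from 11.67, 11.64 and 12.00 in the LP to 11.17, 11.21 and 11.15 in the FP. In the isthmus CTSS had a difference of -0.33 (adjusted p = 0.0838). Without LP heifer 3, 1 of the list was a lower DEG in the ampulla instead of 2. IFI30, a reductase of endosomes that opens disulfide bonds of antigens, rose by 1.63 ± 0.32 (SE) in the isthmus (limma, adjusted p = 0.00642) and had a difference of 0.77 in the ampulla (adjusted p = 0.131).

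NLRC5, the coactivator of class I genes, had signals of 7.88, 7.78 and 7.27 in the ampulla of FP heifers 1, 2 and 3, and of 7.77, 7.67 and 8.48 in the LP. In the isthmus they were 7.95, 8.39 and 7.78 in the FP and 8.10, 7.69 and 9.02 in the LP. The phases overlapped in both tissues, with LP heifer 3 highest in each. The differences were -0.33 (SE 0.33, interval -1.07 to 0.41, adjusted p = 0.573) and -0.23 (SE 0.33, interval -0.97 to 0.51, adjusted p = 0.71), and without LP heifer 3 they were -0.08 and 0.14. Of 15 regulators of MHC transcription and interferon-gamma signalling that were read, none was a DEG. Without the minimum fold 3 fell in the ampulla and 2 in the isthmus, among them IRF2, a factor that binds interferon response elements, which fell by 0.46 (adjusted p = 0.00432) and 0.58 (adjusted p = 0.00131). IFNG, interferon-gamma itself, also named after its values were seen, was between 3.80 and 4.82 on all arrays, under the lower quartile of 5.68 to 5.82.

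The range over the 3 LP heifers exceeded the difference between the phases for 6 of the 9 genes in the ampulla and for 8 of 9 in the isthmus, and that over the 3 FP heifers did so for 6 of 9 in each tissue. Over all probesets the shares were 63.3% and 64.9% for the LP and 61.3% and 61.7% for the FP, so most probesets did likewise. The median residual SD was 0.36 for the 9 genes and 0.17 for all probesets, and 7 of the 9 lay above the latter. LP heifer 3 had the highest signal of the LP in both tissues for 8 of the 9 genes, all but PSMB10, where 13.3% of all probesets did so. It led both other LP heifers by over 0.3 in both tissues for 5 genes, namely TAP1, PSMB8, PSMB9, CD74 and NLRC5, where 2.02% of all probesets did so. In the tissue where its lead was smaller, it led by 0.78 for TAP1, 0.71 for NLRC5, 0.62 for PSMB8, 0.36 for PSMB9 and 0.31 for CD74. Both arrays come from 1 animal, so this describes a heifer and not the LP.

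**Figure D5:**
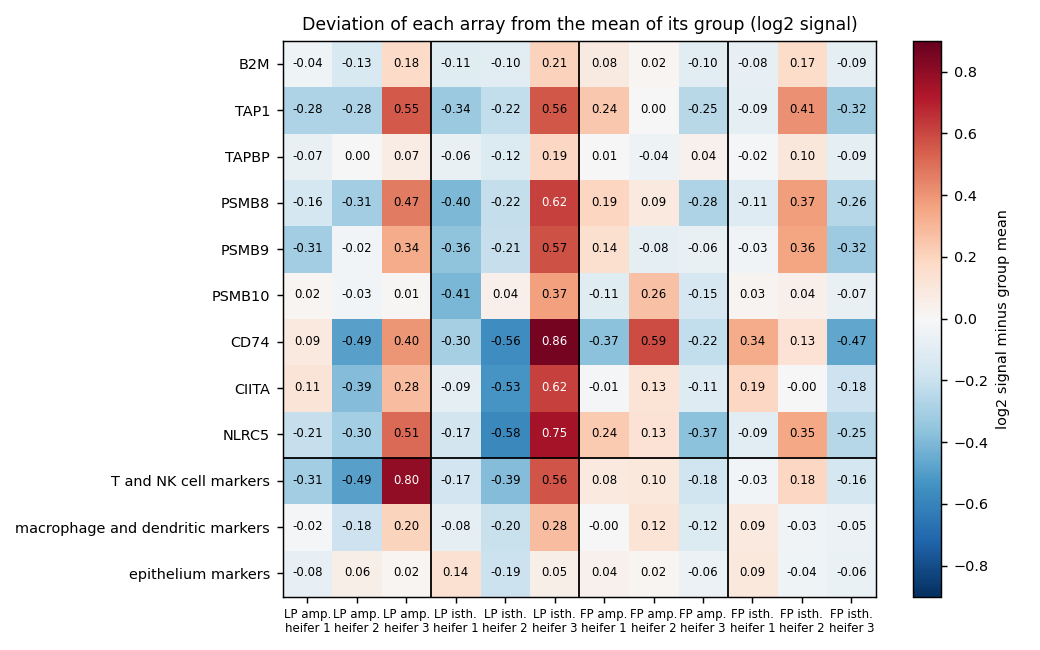
Difference between each array and the mean of its group in log2 signal, for the 9 genes and for the mean of 15 T and NK cell markers, 10 macrophage and dendritic cell markers and 8 epithelial markers (amp., ampulla; isth., isthmus). Both columns of LP heifer 3 are high for TAP1, PSMB8, CD74 and NLRC5 and for T and NK cell markers, but close to 0 for the epithelial markers.

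Markers of T and NK cells were highest on the same LP arrays. The mean signal of 15 such markers was 7.45, 7.27 and 8.56 in the ampulla of LP heifers 1, 2 and 3, and 6.74, 6.75 and 6.47 in the FP. The isthmus arrays gave 7.14, 6.91 and 7.87 in the LP and 6.54, 6.75 and 6.41 in the FP. No FP array reached an LP array of its tissue, and LP heifer 3 was highest of the LP in both tissues for 14 of the 15 markers, and none of the 15 had a mean signal below the arrays' lower quartile. Among them CD3E, a chain of the T cell receptor complex, was 9.41, 9.01 and 11.17 in the LP ampulla and 8.09, 8.15 and 7.60 in the FP ampulla. As DEGs, 6 of the 15 fell in the ampulla and 2 in the isthmus, against 3.38% and 4.04% of all probesets. Without LP heifer 3 the counts were 7 and 2. The part of these cells in the signal of the 9 genes was not tested, and in such samples fewer cells of a type and less RNA per cell cannot be told apart.

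Markers of macrophages and dendritic cells, which carry most class II in many tissues, had a mean of 6.86 to 7.24 in the LP ampulla and 6.32 to 6.57 in the FP ampulla. In the isthmus they had 6.71 to 7.18 in the LP and 6.60 to 6.74 in the FP. Of the 10 markers, 5 fell as DEGs in the ampulla and 1 in the isthmus, against 3.38% and 4.04% of all probesets. In both tissues 7 were highest in LP heifer 3. Without that heifer the DEG counts were 3 and 0. Markers of B and plasma cells (6 read) had a mean of 6.52 to 6.78 in the LP ampulla and 6.09 to 6.25 in the FP ampulla, and of 6.27 to 6.66 and 6.14 to 6.24 in the isthmus. None of those 6 was a DEG (limma), and 1 fell in the ampulla without LP heifer 3. The part of these cells in CD74 and CIITA was not tested either.

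For 4 genes that interferon-gamma can induce, picked after their values were seen and because LP heifer 3 was high, the values are given as a description of that heifer. IDO1, which degrades tryptophan, was 6.67, 6.65 and 9.46 in the ampulla of LP heifers 1, 2 and 3, and 6.26, 6.78 and 10.28 in the isthmus. CXCL9, a chemokine that draws T cells, was 6.14, 5.82 and 8.04 in the ampulla and 5.22, 5.50 and 8.08 in the isthmus. CXCL10 and CXCL11, of the same chemokine group, were led by LP heifer 3 by at least 1.54 and 1.61. None of these 4 genes differed by phase past the threshold in the fit over all arrays (adjusted p from 0.111 to 0.638). Of the 15 regulators of MHC transcription and interferon-gamma signalling, only 3 had LP heifer 3 highest of the LP in both tissues, against 13.3% of all probesets.

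In the FP, it was heifer 2 that stood highest in the isthmus, though not in the ampulla, for TAP1 (9.97), PSMB8 (9.44), PSMB9 (7.01), NLRC5 (8.39), TAPBP (11.86) and B2M (13.33). For CD74 and CIITA that heifer was highest of the FP in the ampulla (10.96 and 7.34) and not in the isthmus. So CD74 and CIITA did not share the highest FP array of these class I genes in either tissue. Heifer 2 is here the number in the labels. Over all probesets, residuals of FP ampulla 2 and FP isthmus 2 correlated at -0.167, and those of FP ampulla 1 and FP isthmus 2 at 0.24. A difference between the tissues of 1 FP heifer is therefore uncertain.

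The phase difference of the 9 genes was not shown to depend on the tissue. The phase by tissue interaction lay between -0.11 for PSMB9 and 0.20 for CIITA, with adjusted p from 0.796 to 0.989, while 0.153% of all probesets passed. The intervals were wide, from -1.14 to 1.34 for CD74 and from -0.28 to 0.32 for TAPBP.

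Between the tissues of the same heifers none of the 9 genes was a DEG, in a comparison where 3.92% of probesets were higher in the isthmus and 3.07% lower in the LP, and 1.52% higher and 0.829% lower in the FP. At an unadjusted p under 0.05 the counts were 1 of 9 in the LP (25.1% of all probesets) and 0 of 9 in the FP (18.0%). Paired by heifer number, PSMB8 and NLRC5 were higher in the isthmus than in the ampulla in all 6 heifers, as were 9.07% of probesets. In the FP this pairing rests on the labels alone. Over all probesets, residuals of FP ampulla 2 correlated at 0.238 with FP isthmus 3 and at -0.167 with FP isthmus 2. PSMB8 was 8.81 in FP ampulla 2 and 8.80 in FP isthmus 3, so with those arrays paired its count would not hold. For NLRC5 the isthmus led by 0.07, 0.61 and 0.51 in FP heifers 1, 2 and 3 and by 0.33, 0.02 and 0.53 in the LP, with mean differences of 0.40 in the FP (adjusted p = 0.595) and 0.29 in the LP (adjusted p = 0.66). For PSMB8 it led by 0.04, 0.63 and 0.36 in the FP and by 0.04, 0.38 and 0.44 in the LP, with mean differences of 0.34 (adjusted p = 0.597) and 0.28 (adjusted p = 0.615).

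PSMB10 went the other way and was lower in the isthmus in all 6 heifers, paired by number, as were 10.8% of probesets. Its differences were -0.25, -0.60 and -0.30 in FP heifers 1, 2 and 3, and -0.88, -0.38 and -0.09 in the LP, with means of -0.38 (SE 0.17, adjusted p = 0.284) and -0.45 (SE 0.17, adjusted p = 0.131). CD74 was lower in the isthmus than in the ampulla in 5 of 6 heifers, with mean differences of -0.77 in the LP and -0.67 in the FP, which did not pass the test (adjusted p = 0.261 and 0.419). The exception was FP heifer 1, at 0.04. In the LP, all 15 T and NK cell markers had lower means in the isthmus (median difference -0.39). Of these 1 was a DEG, against 3.07% of all probesets. Of 10 macrophage and dendritic cell markers 7 were lower there (median -0.23, none a DEG). In the FP 8 of 15 (median -0.06) and 3 of 10 (median 0.07) were lower, and 1 of the 10 was a higher DEG. Of 6 fibroblast markers, 2 were DEGs higher in the isthmus in the LP and 1 in the FP. Higher DEGs were 3.92% of all probesets in the LP and 1.52% in the FP. Of 4 smooth muscle and 8 epithelial markers, 1 each was a higher DEG in the LP isthmus, and 1 of 5 endothelial markers was a lower one. Those lists held no DEG in the FP. The fibroblast markers had a mean of 6.67 to 7.33 in the ampulla and 7.05 to 9.14 in the isthmus. The lowest isthmus value was that of LP heifer 3, at 7.05 against 8.92 and 8.50 in LP heifers 1 and 2. The part of all these cells in the values was not tested. TAP1 was higher in the isthmus in 5 of 6 heifers, with means of 0.36 in the LP (adjusted p = 0.514) and 0.33 in the FP (adjusted p = 0.623).

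Counted without a model, 2 of the 9 genes (TAPBP and PSMB10) had all FP arrays above all LP arrays in the ampulla, as 16.6% of probesets did, and 2 (B2M and CIITA) had all FP arrays below, as 18.9% did. In the isthmus only TAPBP had all FP arrays above (16.5% of probesets), and no gene had all FP arrays below (17.7%).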

How the data were processed

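RNA of oviduct epithelial cells was hybridised to Affymetrix Bovine Gene 1.0 ST arrays, with 1 array per tissue of each heifer. The deposited values are log2 signals, which the authors made by background correction, quantile normalization and median polish (RMA), and per the labels GCOS 1.2 and Partek 6.4 were used. Quantile normalization gives all arrays nearly the same distribution (array medians 7.33 to 7.40), so a shift shared by most genes cannot be seen. Of 26773 probesets, 18457 name 1 gene in the platform annotation, 688 several and 7628 none. Each gene was read on its 1-symbol probeset with the highest mean. Positions are those of RefSeq genes in ARS-UCD2.0, matched by symbol.

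With limma 3.58.1 in R 4.3.3, 1 mean per group was fitted over the 12 arrays (8 residual degrees of freedom, moderated to 10.61), and p-values are two-sided with Benjamini-Hochberg adjustment over all probesets. A DEG has an adjusted p under 0.05 and a fold of at least 1.5. The interaction needs the adjusted p alone. The fit was also run on simulated data with independent noise on each array, so correlated tissues of a heifer or an outlying heifer were not covered. Figures were drawn with matplotlib 3.10.9. The members and lists were chosen with earlier results of these data known. The named genes are all 10 members, up to 4 DEGs per list and contrast with the largest difference (or, where none, 2 with the smallest p), and the 3 genes most like a member with an SD of at least 0.5. Other genes are marked as chosen after their values were seen.

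The labels number the animals of each phase, and the tissues were paired by that number. Over probesets, residuals of arrays with the same number correlated at 0.22 to 0.37 in the LP and at -0.17 to -0.05 in the FP. For arrays with different numbers the values were -0.22 to -0.05 in the LP and -0.15 to 0.24 in the FP. In the FP, ampulla 1 with isthmus 2, ampulla 2 with isthmus 3 and ampulla 3 with isthmus 1 correlated at 0.24, 0.238 and 0.156. All same-number FP correlations were negative. The FP pairing thus rests on the labels alone, and these correlations do not bear it out. The heifer blocks and the fits without an FP heifer depend on it. Alternatives were median centring, the methods' F-test with LSD contrasts, trended robust moderation, a filter on dim probesets, the arrays of the contrast alone, no minimum fold, the mean of all probesets of a gene, a heifer block, and leaving out each heifer.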

Additional observations from a re-analysis of the deposited data

How the results depend on the processing

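None of the 9 genes was a DEG in any of the 5 contrasts under median centring, the methods' F-test, trended robust moderation, the dim filter (20080 probesets kept, quartile 5.79), the arrays of the contrast alone, the mean of probesets or the heifer blocks. The paired fits therefore changed no call. With heifer as a fixed block the isthmus minus ampulla differences in the LP were -0.45 for PSMB10 (adjusted p = 0.134) and -0.77 for CD74 (adjusted p = 0.109), and the random block had a consensus correlation of 0.0885. With no minimum fold 1 gene, TAPBP, was higher in each tissue. Leaving out 1 heifer gave 0 to 2 higher genes in the isthmus (TAPBP and PSMB10 without LP heifer 3) and 0 to 1 lower genes in the ampulla (CIITA without LP heifer 2).

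Of the values of single genes under an alternative, 614 kept direction and call, 5 gained a call and 20 changed sign, all 20 with a heifer left out. For the phase difference these were TAP1 (-0.382 to 0.0339 in the ampulla, -0.481 to 0.00534 in the isthmus), PSMB9 (-0.307 to 0.0175 and -0.441 to 0.0265) and NLRC5 in the isthmus (-0.52 to 0.142), in each case without LP heifer 3. For the interaction the ranges were -0.236 to 0.135 for TAP1, -0.054 to 0.0806 for TAPBP, -0.0836 to 0.211 for PSMB8, -0.325 to 0.0219 for PSMB9, -0.146 to 0.249 for PSMB10, -0.254 to 0.33 for CD74 and -0.0356 to 0.268 for NLRC5. For isthmus minus ampulla they were -0.084 to 0.263 for PSMB9 in the FP and -0.0516 to 5e-05 for B2M in the LP. Leave-one-out values of the proteasome pairs, and list counts without LP heifer 3, were chosen after seeing the data, and the pair PSMB10 and PSMB7 changed sign in the isthmus (-0.16 to 0.24). The causes were not tested. With 3 heifers per phase the precision is limited by their number, and the confidence intervals of 7 of the 9 genes span both signs in the isthmus.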
